A study of Mus musculus with 6 samples.

Results

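The 9 genes described here encode cyclic AMP-dependent protein kinase (PKA) and its inhibitors: the catalytic subunits Prkaca and Prkacb, the regulatory subunits Prkar1a, Prkar1b, Prkar2a and Prkar2b, and the protein kinase inhibitors (PKI) Pkia, Pkib and Pkig. They were taken by gene symbol, and all 9 were among the 24054 genes of the deposited table. The table came from total RNA of TIBx, a mouse line that the labels give as liver BNL 1ME A.7R.1, with 3 libraries of the parental line (genotype WT) and 3 of the line TIBxDNAJ-PKAc (genotype DNAJ-PKAc), replicates A to C in each. DNAJ-PKAc joins the start of the co-chaperone DNAJB1 to the catalytic subunit of PKA, the lesion that marks fibrolamellar carcinoma, a liver tumour. Both lines were grown alike, in DMEM with serum, L-glutamine, pyruvate, nonessential amino acids, HEPES and antibiotics. The labels do not give how the fusion was made, whether the line is 1 clone, or that replicates were separate cultures. A difference between the lines and an effect of the fusion therefore cannot be told apart, and p-values reflect only how far these libraries spread, which may be technical.

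PKA is held inactive as a complex of catalytic and regulatory subunits, and cyclic AMP binding to the regulatory subunits frees the catalytic ones to phosphorylate their substrates. Type I regulatory subunits (Prkar1a, Prkar1b) and the PKI proteins block the active site with a stretch that resembles a substrate but cannot be phosphorylated, whereas type II subunits (Prkar2a, Prkar2b) carry a true phosphorylation site there and are the forms mainly held by A-kinase anchoring proteins. PKI proteins bind only free catalytic subunit and also carry it out of the nucleus. In liver, PKA is the kinase through which glucagon drives glucose release.

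The stretches that meet the active site are shown because they are what the regulatory subunits and the PKI proteins share. Each is 42 bases of coding sequence read 5′ to 3′ from GENCODE M21 transcripts, and the capitals mark the 12 bases (4 codons) of the site that resembles or is a substrate.
Pkia: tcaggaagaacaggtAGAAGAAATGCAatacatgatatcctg
Pkib: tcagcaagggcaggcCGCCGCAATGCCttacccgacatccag
Pkig: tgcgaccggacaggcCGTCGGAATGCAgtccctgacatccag
Prkar1a: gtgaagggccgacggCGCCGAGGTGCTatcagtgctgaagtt
Prkar1b: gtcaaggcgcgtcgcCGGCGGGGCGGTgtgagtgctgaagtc
Prkar2a: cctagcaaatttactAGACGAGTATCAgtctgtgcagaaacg
Prkar2b: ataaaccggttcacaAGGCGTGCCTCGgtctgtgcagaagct
On GRCm38 the site of Pkia lies at chr3:7437404-7437445 (plus strand), that of Pkib at chr10:57728158-57728199 (plus), that of Pkig at chr2:163721190-163721231 (plus), that of Prkar1a at chr11:109660092-109660133 (plus) and that of Prkar1b at chr5:139108520-139108561 (minus), each within 1 exon. In Prkar2a and Prkar2b the stretch crosses an exon junction. The site begins at codon 19 in Pkia and Pkig and at codon 96 in Prkar1a and Prkar1b.

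The catalytic and regulatory paralogs differed in coding sequence, and how well their reads were counted apart was not tested. Prkaca and Prkacb coding sequences were identical at 80.1% of 1053 aligned bases, with a longest shared run of 34 bases. Prkar1a and Prkar1b were identical at 75.2% (longest run 17 bases) and Prkar2a and Prkar2b at 71.9% (longest run 36 bases). The counts of the 9 genes were whole numbers in all 6 libraries. No gene of the table shared exon bases with any of them in GENCODE M21. Prkar1b shares 341 exon bases with the unlisted transcript Gm15672 on its own strand, so its counts could include reads of that transcript.

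Values per library are given in the order A, B, C throughout. Library totals ran from 8095549 to 9969590 expected counts, so that 3 counts, the limit that a count of 0 allows, correspond to 0.297 to 0.370 CPM (counts scaled to a common library size with TMM factors). All replicate pairs differed by more than sampling noise (chi-square per gene from 3.66 for DNAJ-PKAc A against B to 91.8 for DNAJ-PKAc A against C), and none was merged. WT B stood apart in RNA makeup, with the nuclear RNA Malat1 at 1.04% of its counts against 0.107% to 0.464% elsewhere. DNAJ-PKAc C stood apart too: the summed level of 8 proliferation markers was 1895, 2039 and 209 CPM over the DNAJ-PKAc libraries and 492 to 580 CPM over WT. Of the 12 hepatocyte markers listed there, 9 had no count in any library, Alb and Hnf4a among them, Fgb and Krt18 had 1 count each over all 6 libraries, and Krt8 had 206 counts over WT and 24 over DNAJ-PKAc. The labelled liver origin was thus not visible in these markers. Of 6 mesenchymal markers Thy1 was at 0 throughout and 0 of the 5 others passed the test, with Vim at a mean of 13137 CPM in WT and 11910 CPM in DNAJ-PKAc. Their summed level was 21292 to 21774 CPM over WT and 17097, 17056 and 25435 CPM over the DNAJ-PKAc libraries. Col1a1, Col1a2 and Pdgfrb lay below every WT library in A and B but not in C. S100a4 went the other way, at 1918, 2076 and 885 CPM over the DNAJ-PKAc libraries against 930 to 1291 CPM over WT.

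Over both lines, 8 of the 9 genes were expressed in every library and passed the count filter in both groups, and Pkib had 0 counts throughout. Of the 8, only the inhibitor gene Pkig passed the test, being lower in DNAJ-PKAc. The groups did not overlap for 5 of the 8: Prkaca and Prkar2b were higher in all DNAJ-PKAc libraries, and Prkar1b, Pkia and Pkig were lower in all. Of the 8, then, 0 were called higher and 1 lower, beside 3.51% of all 10975 genes tested, with 1.37% called higher and 2.14% lower. Groups without overlap made up 28.9% of all genes tested, 15.8% higher and 13.1% lower in DNAJ-PKAc. The median log2 difference of the 8 was -0.09, beside 0.05 over all genes tested.

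**Figure D1:**
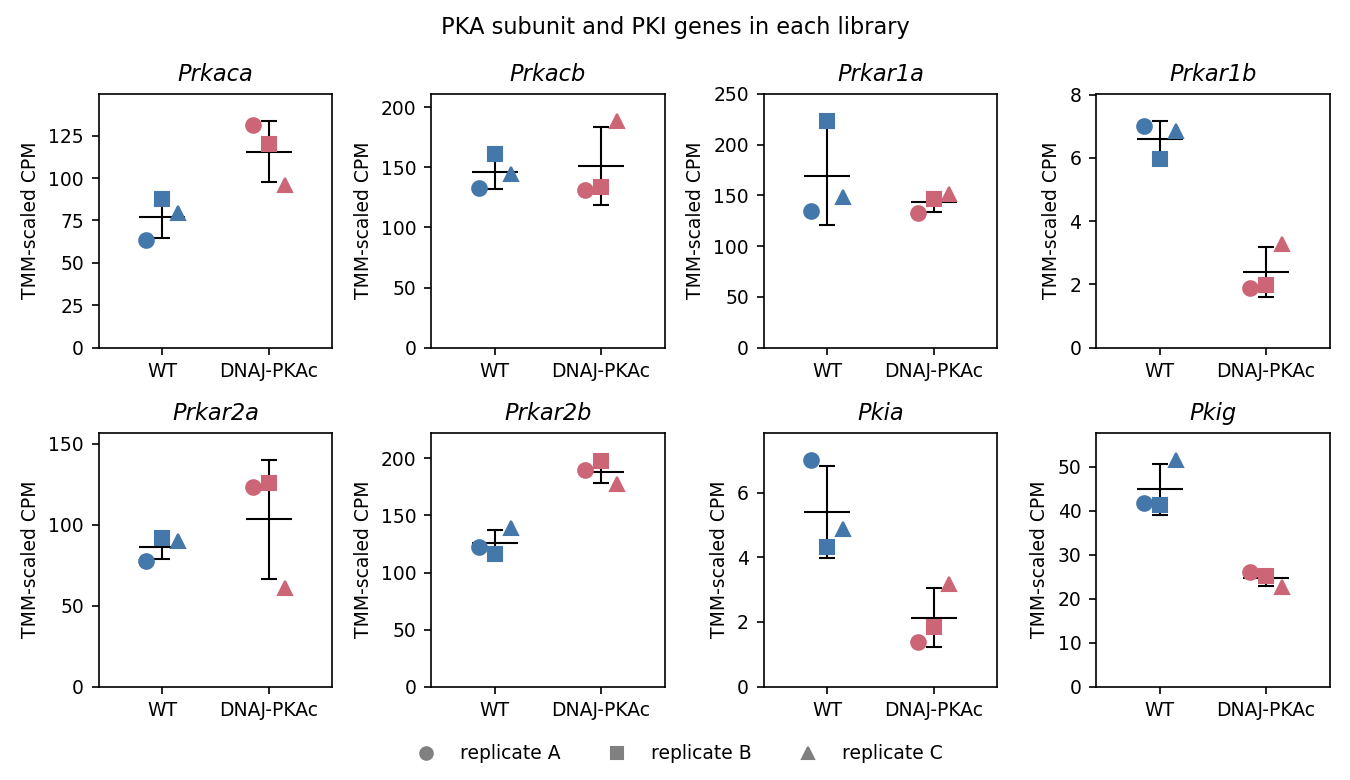
TMM-scaled CPM of the 8 detected genes (y axis, from 0) in WT (blue) and DNAJ-PKAc (red) libraries, with a symbol for each of replicates A, B and C and black bars for the mean and SD of 3 libraries. Prkaca and Prkar2b lie higher, and Prkar1b, Pkia and Pkig lower, in all 3 DNAJ-PKAc libraries, while DNAJ-PKAc C departs from A and B for Prkacb and Prkar2a.

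Prkaca, the main catalytic subunit of most tissues (chromosome 8, 83972978 to 83996444, GRCm38.p6), encodes the subunit that forms the kinase part of the fusion. It had 580, 751 and 717 counts in the WT libraries and 1325, 972 and 785 counts in the DNAJ-PKAc libraries. Scaled to CPM the WT libraries held 63.6 to 87.6 and the DNAJ-PKAc libraries 95.7 to 131. DNAJ-PKAc C came nearest to WT, and the groups did not overlap. The log2 difference was 0.59 (SE 0.19, 95% interval 0.14 to 1.04), which did not pass over all genes (edgeR quasi-likelihood test with Benjamini-Hochberg adjustment, adjusted p = 0.154). Leaving out DNAJ-PKAc C made it 0.71, which passed (edgeR adjusted p = 0.0242) where 25.3% of all genes did, and leaving out any 1 other library gave adjusted p-values of 0.199 to 0.436. The labels do not give how the fusion was made, so its transcripts may or may not be counted here. A count per gene would not separate them from those of the intact gene. The level of either alone is therefore not known, and the genotype label was not checked by this count.

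Prkacb, the second catalytic subunit (chromosome 3, 146729579 to 146812946), had 133, 161 and 144 CPM over the WT libraries. Over the DNAJ-PKAc libraries it had 131, 134 and 189 CPM. The groups overlapped, and only DNAJ-PKAc C lay above every WT library. The log2 difference was 0.05 (SE 0.19, 95% interval -0.40 to 0.50, edgeR adjusted p = 0.893), and it pointed down with upper-quartile scaling (-0.010), without WT A (-0.012) and without DNAJ-PKAc C (-0.14).

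Counts were divided by the length of the longest protein-coding transcript before genes were set beside each other, giving CPM per kilobase (kb). On that scale the ranges of the 2 catalytic genes overlapped in WT. Prkaca was at 27.9, 38.5 and 34.8 CPM per kb and Prkacb at 30.6, 37.0 and 33.2 CPM per kb over the WT libraries. In DNAJ-PKAc A and B Prkaca was the more abundant, at 57.6 and 52.7 CPM per kb against 30.1 and 30.8 CPM per kb for Prkacb. In DNAJ-PKAc C they were at 42.0 and 43.4 CPM per kb.

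The share of Prkaca in the summed catalytic level was therefore 47.8%, 51.0% and 51.2% over the WT libraries and 65.7%, 63.1% and 49.2% over the DNAJ-PKAc libraries. The means were 50.0% ± 1.92 and 59.3% ± 8.87 (SD, n = 3), and DNAJ-PKAc C lay inside the WT range. The balance depended on the length used: by plain counts the mean shares were 34.4% and 43.6%, and by coding length 37.2% and 46.7%, so that Prkacb was the larger in WT on both of these scales. In DNAJ-PKAc A and B the Prkaca share was 50.0% and 47.3% by plain counts, and 53.2% and 50.4% by coding length. The summed catalytic level did separate the groups, at 58.5, 75.6 and 67.9 CPM per kb in WT and 87.8, 83.6 and 85.5 CPM per kb in DNAJ-PKAc. In A and B the excess over WT lay in Prkaca, whereas in C both genes stood above every WT library. Fusion transcripts, if counted, would be part of the Prkaca level in these shares and in the ratios below. Shares and ratios were described without a test, since an exact permutation test of 3 libraries against 3 cannot give a 2-sided p below 0.1.

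**Figure D2:**
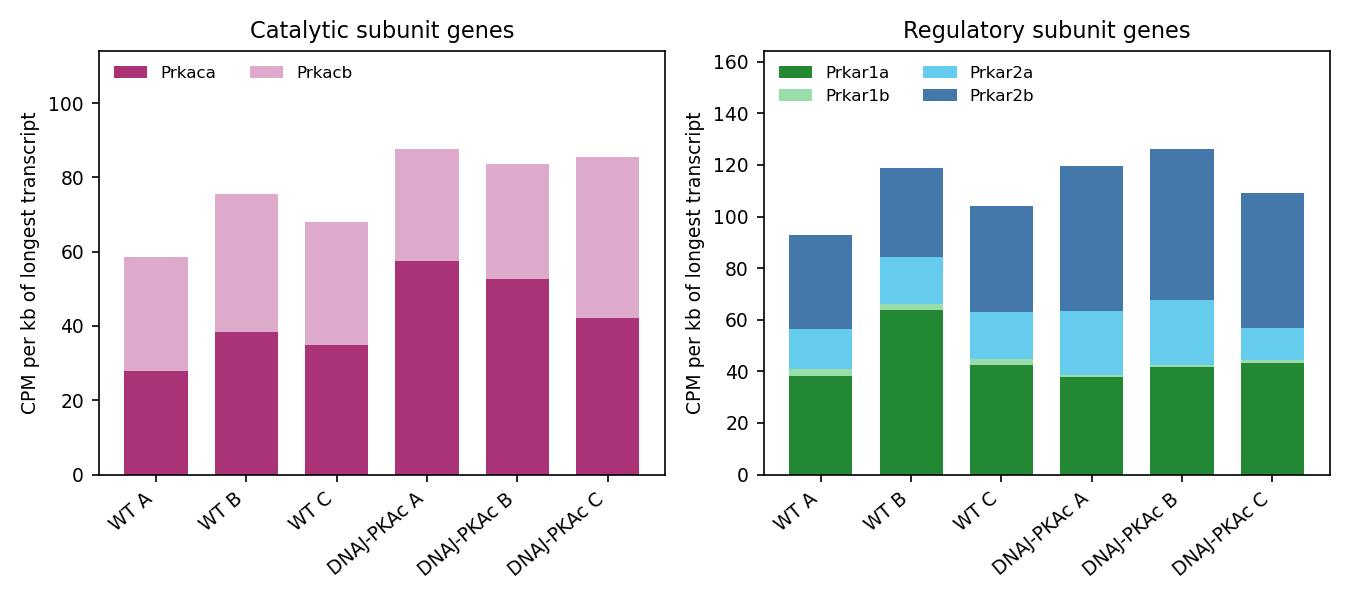
Stacked levels of the 2 catalytic genes (left) and the 4 regulatory genes (right) in each of the 6 libraries, in CPM per kb of the longest transcript. Prkaca fills 65.7% and 63.1% of the catalytic bar in DNAJ-PKAc A and B against 47.8% to 51.2% in WT, and Prkar2b fills 46.4% to 48.1% of the regulatory bar in DNAJ-PKAc against 28.9% to 39.5% in WT.

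Among the regulatory genes, 0 of 4 passed the test, and the groups were apart only for the beta form of each type, Prkar2b being higher and Prkar1b lower in DNAJ-PKAc. Prkar2b, the type II beta subunit known best from fat and brain (chromosome 12, 31958450 to 32061648), had 122, 116 and 139 CPM over the WT libraries. It had 190, 198 and 177 CPM over the DNAJ-PKAc libraries. All DNAJ-PKAc libraries lay above all WT libraries, including C. The log2 difference was 0.59 (SE 0.15, 95% interval 0.24 to 0.93), with an edgeR adjusted p of 0.0872. DESeq2, which called 8.87% of all genes, called it (adjusted p = 0.0263), as did edgeR without DNAJ-PKAc C (adjusted p = 0.0192), while leaving out any 1 other library gave edgeR adjusted p-values of 0.168 to 0.322.

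Prkar1b, the type I beta subunit, which is mainly a neuronal form (chromosome 5, 139017304 to 139150703), was a minor transcript. It had 64, 51 and 62 counts over the WT libraries (7.01, 5.95 and 6.84 CPM) and 19, 16 and 27 counts over the DNAJ-PKAc libraries (1.88, 1.98 and 3.29 CPM). The groups did not overlap, and the DNAJ-PKAc library nearest to WT was C. The log2 difference of -1.47 (SE 0.31, 95% interval -2.21 to -0.74) narrowly missed the threshold (edgeR adjusted p = 0.0546). It passed with RLE scaling (edgeR adjusted p = 0.0455, 3.78% of all genes called), with limma-voom (adjusted p = 0.0470, 3.56% called), with DESeq2 (adjusted p = 0.00308) and without DNAJ-PKAc C (edgeR adjusted p = 0.00459). Leaving out any 1 other library gave edgeR adjusted p-values of 0.102 to 0.232.

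Prkar1a, the type I alpha subunit found in nearly all cells (chromosome 11, 109649023 to 109669663), had 134, 224 and 148 CPM over the WT libraries and 133, 146 and 152 CPM over the DNAJ-PKAc libraries. WT B alone stood out, and the other 5 libraries were all between 133 and 152 CPM. The log2 difference was -0.23 (SE 0.22, 95% interval -0.75 to 0.28, edgeR adjusted p = 0.551) and -0.02 without WT B. WT B is also the library with the high share of Malat1, and the part of its RNA makeup in this value was not tested.

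Prkar2a, the type II alpha subunit (chromosome 9, 108692143 to 108750444), split the DNAJ-PKAc group. It had 123, 126 and 60.9 CPM over the DNAJ-PKAc libraries and 77.8, 92.1 and 89.8 CPM over the WT libraries. DNAJ-PKAc A and B lay above, and C below, every WT library, the same order as that of the proliferation markers, whose part in this value was not tested. The log2 difference was 0.26 (SE 0.28, 95% interval -0.41 to 0.92, edgeR adjusted p = 0.612), and it became 0.53 when DNAJ-PKAc C was left out (edgeR adjusted p = 0.0327).

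The make-up of the regulatory pool was described without a test. Type I genes took 44.1%, 55.5% and 43.1% of the summed regulatory level per kb over the WT libraries and 32.2%, 33.6% and 40.7% over the DNAJ-PKAc libraries. The means were 47.6% ± 6.87 and 35.5% ± 4.54 (SD, n = 3), and the groups did not overlap, with DNAJ-PKAc C the nearest to WT and WT B the highest. The share of Prkar1a alone overlapped between the groups by coding length. Prkar2b alone took 39.0%, 28.9% and 39.5% in WT and 47.1%, 46.4% and 48.1% in DNAJ-PKAc. The share of Prkar1b was 2.42% ± 0.489 in WT and 0.777% ± 0.316 in DNAJ-PKAc (SD, n = 3), so nearly all type I transcript was Prkar1a in both lines. As shares of plain counts, the type I means were 44.8% and 33.6%.

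The inhibitor genes gave the one call among the 9. Pkig, the PKI form with the widest tissue range (chromosome 2, 163658211 to 163726158), had 380, 354 and 467 counts over the WT libraries and 263, 204 and 186 counts over the DNAJ-PKAc libraries. These were 41.6, 41.3 and 51.6 CPM against 26.0, 25.2 and 22.7 CPM. All DNAJ-PKAc libraries lay below all WT libraries, and unlike for Prkar2a or Prkacb, DNAJ-PKAc C kept close to A and B. The log2 difference was -0.86 (SE 0.17, 95% interval -1.26 to -0.47), a fall of 1.82-fold from 44.8 ± 5.82 to 24.6 ± 1.75 CPM (SD, n = 3; edgeR adjusted p = 0.0397). The size held when any 1 library was left out (log2 -0.96 to -0.75), but the call was lost without WT A, WT B, WT C, DNAJ-PKAc A or DNAJ-PKAc B (edgeR adjusted p from 0.0723 to 0.170), where 0.693% to 0.994% of all genes were called.

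Pkia, the heat-stable inhibitor best known from muscle (chromosome 3, 7366604 to 7445366), was low. It had 64, 37 and 44 counts over the WT libraries (7.01, 4.32 and 4.86 CPM) and 14, 15 and 26 counts over the DNAJ-PKAc libraries (1.39, 1.85 and 3.17 CPM). The groups did not overlap. The log2 difference was -1.34 (SE 0.39, 95% interval -2.27 to -0.41, edgeR adjusted p = 0.125), and it was called by DESeq2 (adjusted p = 0.0437) and without DNAJ-PKAc C (edgeR adjusted p = 0.0139). Leaving out any 1 other library gave edgeR adjusted p-values of 0.169 to 0.372. Pkib (chromosome 10, 57631981 to 57741112) was not detectable in either line at the limit of 0.297 to 0.370 CPM per library.

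**Figure D3:**
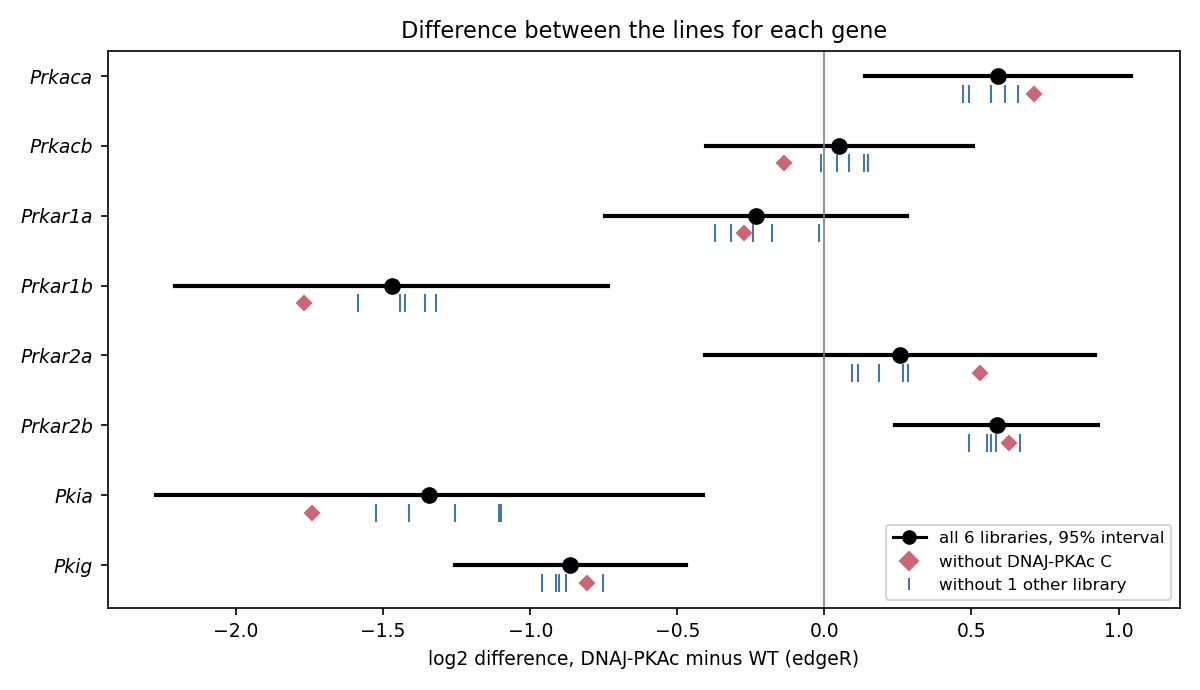
The log2 difference (x axis, DNAJ-PKAc minus WT) of each detected gene, with black points and lines for all 6 libraries and their 95% interval, red diamonds for the value without DNAJ-PKAc C and blue ticks for the values without 1 other library. Pkig stays between -0.96 and -0.75 in each of these, while Prkacb changes sign.

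Set against the catalytic genes, inhibitor transcript was lower in the DNAJ-PKAc line. The catalytic level holds Prkaca, whose counts may or may not include fusion transcripts. The ratio of summed PKI to summed catalytic level per kb was 0.706, 0.532 and 0.736 over the WT libraries. Over the DNAJ-PKAc libraries it was 0.284, 0.291 and 0.261. The ratio of means was 0.423, with no overlap and with DNAJ-PKAc C the lowest of the 6 libraries. Per kb of the longest transcript, Pkig made up between 95.3% and 98.5% of the PKI level in every library. By plain counts and by coding length its share was between 85.6% and 94.9%. By plain counts the DNAJ-PKAc to WT ratio was 0.441, and by coding length 0.436, although the ratio itself depends strongly on the length used.

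The ratio of summed regulatory to summed catalytic level was 1.58, 1.57 and 1.53 over the WT libraries and 1.36, 1.51 and 1.28 over the DNAJ-PKAc libraries. DNAJ-PKAc B lay just under the lowest WT library. This separation rested on the length scale: by coding length the ratios were 1.67, 1.70 and 1.64 against 1.59, 1.74 and 1.32, and by plain counts 1.74, 1.76 and 1.72 against 1.71, 1.86 and 1.38, where DNAJ-PKAc B was the highest and C the lowest of the 6 libraries.

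**Figure D4:**
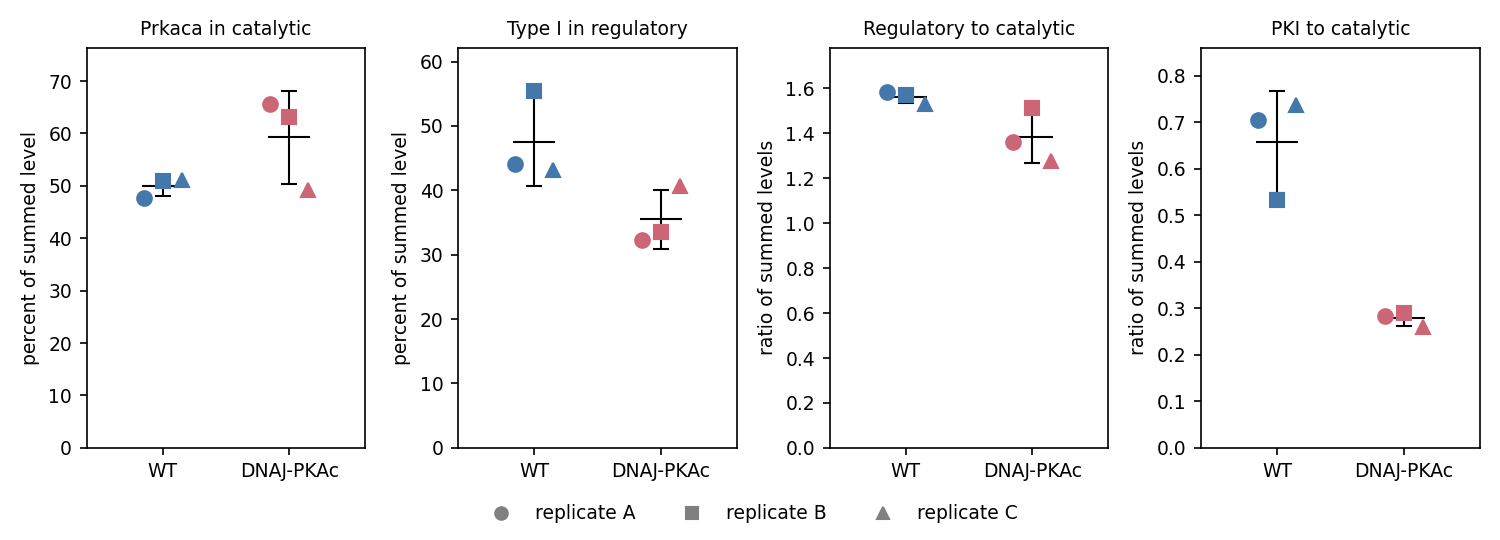
From left to right, the share of Prkaca in the catalytic level, the share of type I genes in the regulatory level, and the ratios of regulatory and of PKI level to catalytic level, each per kb of the longest transcript, for WT (blue) and DNAJ-PKAc (red) libraries with the mean and SD of 3. The PKI ratio is 0.532 to 0.736 in WT and 0.261 to 0.291 in DNAJ-PKAc, whereas DNAJ-PKAc C returns to the WT range for the Prkaca share.

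The order of the mean levels was not the same in both lines. In WT the means in CPM per kb ran from Prkar1a (48.0) through Pkig (42.3), Prkar2b (37.2), Prkaca (33.7) and Prkacb (33.6) to Prkar2a (17.4), Prkar1b (2.26 to 2.66 over the libraries) and Pkia (1.49). Each of the first 5 overlapped its neighbours across libraries, and the last 3 were apart from the genes above and from each other. In DNAJ-PKAc Prkar2b led (55.8), followed by Prkaca (50.8), Prkar1a (40.9), Prkacb (34.8), Pkig (23.3), Prkar2a (20.8), Prkar1b (0.903) and Pkia (0.590). Here Prkacb and Pkig did not overlap (lowest 30.1 and highest 24.6 CPM per kb), nor did Prkar2a and Prkar1b, while the other neighbours did. Pkig thus ranked 2 in WT and 5 in DNAJ-PKAc. The order depended on the length used. By coding length Pkig ranked 1 in WT, at 197 CPM per coding kb, and 5 in DNAJ-PKAc, at 108. Prkaca ranked 5 in WT and 4 in DNAJ-PKAc on that scale. In DNAJ-PKAc it was then at 110 CPM per coding kb, below Prkacb (127) and Prkar1a (126).

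Transcripts whose pattern over the 6 libraries was most like that of Prkaca were those of Akap1, an anchoring protein that tethers PKA to mitochondria (Pearson r = 0.996 of log2 CPM), Ephb2 (0.992), Smpd4 (0.990), Ddx23 (0.986) and Mapre2 (0.985). Akap1 itself differed little between the lines (log2 0.12, edgeR adjusted p = 0.622). For Pkig they were Ssbp4 (0.998), Naip1 (0.993), Tmod1 (0.990), Rnf145 (0.989) and Pdia5 (0.989). These values describe 6 points in 2 groups that share library and depth with each other, and 43 genes exceeded 0.95 for Prkaca and 116 for Pkig.

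Cyclic AMP response elements were searched for in the 250 bases before each RefSeq start (GRCm38.p6), since PKA acts on transcription largely through CREB bound to them. Windows were given for 8 of the 9 genes, all but Pkia, 24 windows in all. The full palindrome TGACGTCA was in 1 window, of Prkar1a, and in 1.55% of all 32851 windows. Its shorter core, TGACG on either strand (CGTCA on the strand shown) and contained in the palindrome, was in 7 of the 24 windows, of 5 genes, and in 17.8% of all windows. Windows of the same gene can overlap, and a core of Prkar1a was counted in overlapping windows. The 2 stretches below are shown because they hold the palindrome and a pair of cores. Capitals mark the motif, and both lie on the plus strand, at chr11:109650876-109650935 for Prkar1a and at chr8:83972853-83972977 for Prkaca.
Prkar1a: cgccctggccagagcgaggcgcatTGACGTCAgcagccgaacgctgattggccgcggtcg
Prkaca: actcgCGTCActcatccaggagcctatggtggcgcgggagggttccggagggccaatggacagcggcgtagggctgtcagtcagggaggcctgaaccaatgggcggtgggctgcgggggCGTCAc
The palindrome of Prkar1a begins 49 bases before one of its starts. As given above, Prkar1a had groups that overlapped and Prkaca groups that did not. The other genes with a core were Prkar1b and Pkig, lower in DNAJ-PKAc without overlap, and Prkacb, whose groups overlapped. A link between motif and level was not tested.

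The genes around PKA were described by lists, all chosen with earlier results of these data known. Of 6 tested genes among other cyclic AMP sensors and PKA partners, 0 rose and 0 fell, with a median log2 difference of 0.15, which was 0.27 without WT B and -0.02 without DNAJ-PKAc C. Prkx, a kinase close to the catalytic subunits that PKI also inhibits, had 24.5, 22.2 and 22.7 CPM over the WT libraries and 32.7, 32.9 and 39.8 CPM over the DNAJ-PKAc libraries. Its groups did not overlap (log2 0.60, SE 0.16, edgeR adjusted p = 0.109), and it passed without DNAJ-PKAc C (edgeR adjusted p = 0.0414), where 25.3% of all genes did. Gpr161, an orphan receptor that anchors type I PKA in cilia, had a log2 difference of 0.43 (edgeR adjusted p = 0.443), and the abundant Pja2, a ubiquitin ligase for regulatory subunits, and Pdpk1, which phosphorylates the kinase's activation loop, had log2 differences of 0.13 each (edgeR adjusted p = 0.810 and 0.720), which were -0.14 and -0.04 without DNAJ-PKAc C.

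Of 14 tested A-kinase anchoring protein genes 0 rose and 0 fell, with 5 above 0, 9 below and a median log2 difference of -0.17, which was 0.07 without WT B. Akap12 (gravin, a plasma membrane anchor) had 6.25, 9.92 and 13.7 CPM over the WT libraries and 14.6, 16.2 and 44.2 CPM over the DNAJ-PKAc libraries, the high value being that of C (log2 1.33, edgeR adjusted p = 0.198). Akap9, an anchor at the Golgi and centrosome, had a log2 difference of -0.69 (edgeR adjusted p = 0.281), with WT B at 152 CPM against 49.9 to 83.4 CPM in the other libraries. The abundant Nbea and Akap11 had log2 differences of 0.44 and -0.12 (edgeR adjusted p = 0.469 and 0.822). Among 7 tested genes of adenylyl cyclases and Gs, 0 rose and 0 fell, with a median log2 difference of -0.05, which was 0.18 without WT B. Gnas, which encodes Gs alpha, had 649, 723 and 699 CPM over the WT libraries and 797, 776 and 930 CPM over the DNAJ-PKAc libraries (log2 0.27, edgeR adjusted p = 0.329). The cyclases Adcy1, Adcy7 and Adcy6 had log2 differences of 0.75, -0.22 and -0.05 (edgeR adjusted p = 0.252, 0.716 and 0.913). Adcy7 had 96.4, 97.4 and 108 CPM over the WT libraries and 64.4, 57.4 and 137 CPM over the DNAJ-PKAc libraries, so that C lay above and A and B below WT. Without C, where 25.3% of all genes passed, Adcy7 was the 1 gene of the 7 that did, as lower (log2 -0.72, edgeR adjusted p = 0.0120).

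Of 7 tested phosphodiesterase genes, which end the cyclic AMP signal, 1 rose and 0 fell, beside 1.37% and 2.14% of all genes tested. Their median log2 difference was 0.14, which was 0.04 without DNAJ-PKAc C. The one that rose was Pde4b, with 0 counts in all WT libraries and 13.1, 14.4 and 36.9 CPM over the DNAJ-PKAc libraries (edgeR adjusted p = 0.0145, and 0.0569 without WT B). Pde4d had 19.8, 33.3 and 23.0 CPM over the WT libraries and 50.0, 50.3 and 96.3 CPM over the DNAJ-PKAc libraries (log2 1.37, SE 0.33, edgeR adjusted p = 0.0802), again without overlap and highest in C. The most abundant, Pde3b and Pde7a, had log2 differences of 0.43 and 0.14 (edgeR adjusted p = 0.207 and 0.644). Pde1b, a calmodulin-activated form named here after its values were seen, had 5.81, 7.94 and 20.6 CPM over the WT libraries and 0.396, 0 and 1.95 CPM over the DNAJ-PKAc libraries (log2 -3.87, edgeR adjusted p = 0.0872). Without DNAJ-PKAc C, where 25.3% of all genes passed, 3 of the 7 did as higher and Pde1b as lower (edgeR adjusted p = 0.0128). Of 16 tested genes that cyclic AMP induces through CREB, a list that also holds Pde4b and Pde4d, 3 rose and 0 fell, beside those same shares. Of the 16, 14 lay above 0 and the median log2 difference was 0.82, beside a median of 0.05 over all genes tested. The 3 were Pde4b and the nuclear receptor genes Nr4a2 (5.18 ± 0.834 to 15.7 ± 1.65 CPM, SD, n = 3; edgeR adjusted p = 0.0162) and Nr4a1 (5.84 ± 2.03 to 17.2 ± 2.49 CPM, SD, n = 3; edgeR adjusted p = 0.0389). Junb, the most abundant, had a log2 difference of 0.04 (edgeR adjusted p = 0.926). Leaving out DNAJ-PKAc C gave 5 genes of the 16 that passed as higher, beside 25.3% of all genes in either direction, and a median of 0.58. In that setting 5 others lay below 0, all short of the threshold, namely Dusp1, Egr1, Per1, Fos and Fosb, and the last 2 of these turned from 0.96 to -0.45 and from 0.29 to -0.88. Leaving out any 1 other library gave 1 gene that passed, where 0.693% to 0.994% of all genes did. Leaving out WT B together with DNAJ-PKAc C gave 8 higher and 2 lower, where 48.5% of all genes passed in either direction.

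The list of CREB factors, their coactivators and the salt-inducible kinases did not share that direction. Of 11 genes 0 rose and 0 fell, 9 lay below 0 and the median log2 difference was -0.56, which was -0.17 without WT B. The 2 above 0, Crem and Sik1, are also in the list of CREB target genes. Crem, whose short products repress the response, had 9.10, 6.65 and 6.62 CPM over the WT libraries and 15.9, 15.6 and 9.50 CPM over the DNAJ-PKAc libraries (log2 0.87, edgeR adjusted p = 0.154). Sik3, a salt-inducible kinase that PKA inhibits, had a log2 difference of -0.83 (edgeR adjusted p = 0.170), and the abundant Ep300 and Creb1 had -0.61 and -0.16 (edgeR adjusted p = 0.430 and 0.576). Ep300 had 206 CPM in WT B against 66.4 to 86.5 CPM in the other libraries. Without WT B the log2 differences of Sik3, Ep300 and Creb1 were -0.48, 0.07 and -0.08. WT B stood apart in the list, with a summed level of 777 CPM against 345 to 412 CPM in the other 5 libraries, and its part in these negative values was not tested.

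**Figure D5:**
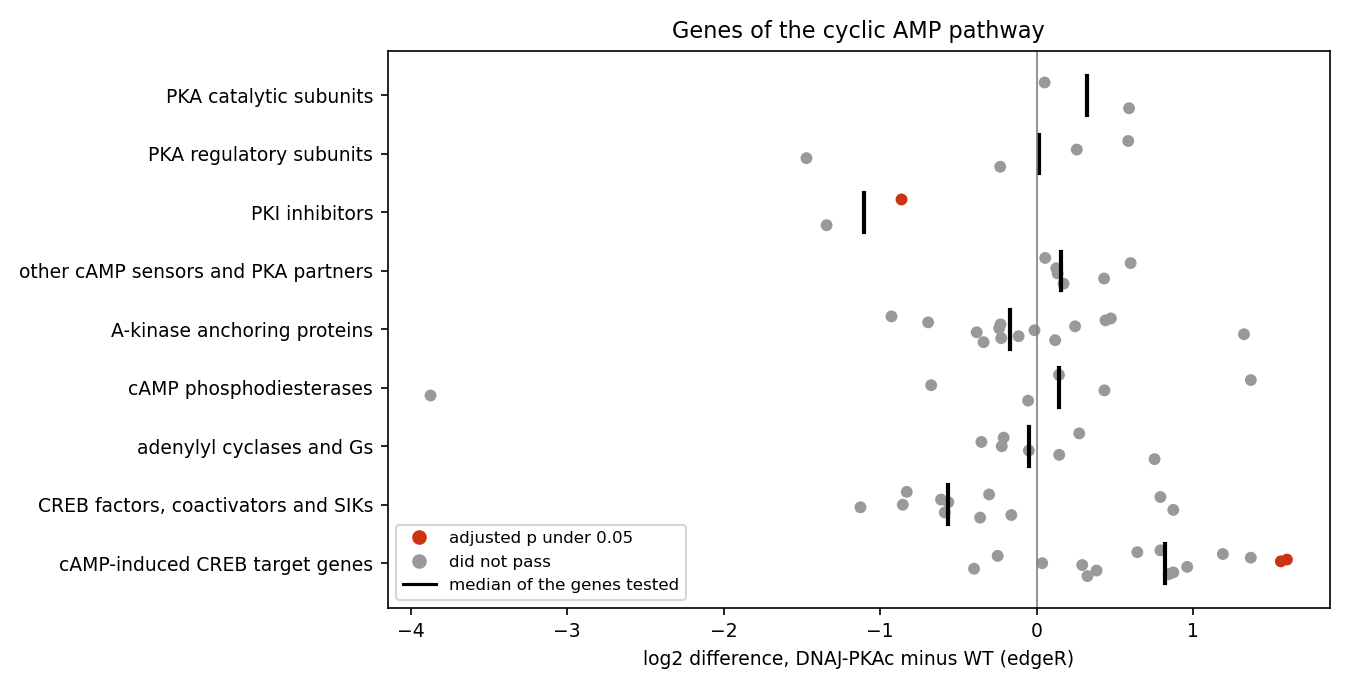
The log2 difference (x axis, DNAJ-PKAc minus WT) of each tested gene of the PKA and cyclic AMP lists (rows), in red where the edgeR adjusted p was under 0.05, with a black line at the median of the genes tested. Pde4b, with 0 counts in WT, is left out of the points in both lists that hold it. The inhibitor genes lie below 0 and 14 of 16 CREB target genes above it.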

How the data were processed

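The values the authors deposited are expected counts by gene symbol, unnormalized, with a column for every library, per the file headers. The submitters' processing notes name STAR 2.5.2b, RSEM 1.3.0 and mm10 but no role for them. The sources used here do not give the annotation or the strand option of the counting. Libraries were stranded total RNA libraries, per the labels' protocols. Expected counts were rounded, genes were kept by filterByExpr (minimum count 10), and edgeR 4.0.16 (R 4.3.3) fitted a quasi-likelihood model over all 10975 genes kept, with TMM factors, robust dispersions, the group as the only term and Benjamini-Hochberg adjustment (threshold 0.05). SE and 95% intervals come from its F statistic. DESeq2 1.42.0 and limma-voom (limma 3.58.1) were alternatives, beside other scalings and filters, a replicate block and libraries left out. The members and lists were chosen with earlier results of these data known. All 9 members were named, the 5 genes most correlated with Prkaca and with Pkig, and per list the 2 genes of smallest adjusted p and up to 2 of highest level. Nr4a1 was named as the third call of its list and Akap1 falls under both the likeness rule and a list. Lengths are from GENCODE M21, and promoter windows and gene coordinates are from RefSeq on GRCm38.p6, the assembly of mm10. Limits for counts of 0 use 3 counts and cover counting error only. The scripts were also tested on simulated data, whose means and dispersions were taken from these libraries. On those data edgeR found 14 of 100 changes of 2-fold, so a gene that did not pass is not shown to be unchanged.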

Additional observations from a re-analysis of the deposited data

How the results depend on the processing

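With all 6 libraries edgeR called 385 genes, 150 higher and 235 lower, and of the 9 members 0 higher and 1 lower. With upper-quartile scaling the split over all genes was 114 and 295. DESeq2 called 974 genes, with 1 member higher and 3 lower. RLE scaling and limma-voom each called 2 members lower. Leaving out 1 library gave 77 to 2808 genes, 0 to 3 members higher and 0 to 3 lower; the 2808 and the 3 and 3 members (Prkaca, Prkar2a and Prkar2b higher, Prkar1b, Pkia and Pkig lower) came without DNAJ-PKAc C. Removing WT B together with DNAJ-PKAc C gave 5336 genes, with the same counts of 3 and 3. That choice keeps the closest pair of each group, which makes the spread small by construction. With the replicate letter as a replicate block 199 genes and 0 members were called, with Pkig at an edgeR adjusted p of 0.125. Same-letter libraries did not deviate together (r of 0.211, -0.198 and 0.0282 for A, B and C), and WT A correlated best with DNAJ-PKAc B, so the letters were not taken as pairs. Prkacb pointed down in 4 settings: upper-quartile scaling (-0.010), without WT A (-0.012), without DNAJ-PKAc C (-0.14) and with WT B removed as well (-0.11), and leaving out 1 library gave -0.14 to 0.15. The cause was not tested. The 108 other member values kept their direction. The difference in the ratio of regulatory to catalytic level (-0.178 per kb of transcript) was -0.0882 by plain counts, and that in the PKI ratio (-0.379) was -0.127 by plain counts and -0.644 by coding length, as the length used sets the scale of these ratios. Prkar1b and Pkia rest on 14 to 64 counts per library, and Pkib on 0.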
